A study of Homo sapiens with 2 samples.

Results

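The SLIT ligands SLIT1, SLIT2 and SLIT3 and the roundabout receptors ROBO1, ROBO2, ROBO3 and ROBO4 were examined for OTX2 binding in D283 tumorspheres. These 7 genes, of 19881 protein-coding genes with a GRCh38 position in the annotation used, were taken by family membership, and a peak was assigned to a gene when it overlapped the GENCODE gene record extended by 50 kb on each side. Together the extended records held 327 of the 137412 deposited OTX2 peaks, each peak counted once. D283 is a long-established line from a medulloblastoma, a childhood tumour of the cerebellum, and OTX2 is a homeobox transcription factor of the developing brain. Both libraries came from untreated tumorspheres labelled OTX2+ control, kept in suspension as spheres in a neural medium containing EGF and bFGF. For ChIP-Seq, chromatin was crosslinked, sheared and pulled down with an OTX2 antibody, and the 1 ChIP library was set against 1 input library that received no antibody. With 1 library per group, no value has a replicate error and no difference between genes was tested. The cell identity could not be checked against marker genes, because expression was not measured in these libraries.

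SLIT proteins are large secreted ligands with leucine-rich repeats and EGF-like repeats. ROBO proteins are transmembrane receptors of the immunoglobulin superfamily, and binding of SLIT to ROBO1 or ROBO2 repels growing axons and migrating neurons, most famously at the midline of the nervous system. In the hindbrain the pathway steers commissural axons and the migrating precerebellar neurons. ROBO3 is a divergent family member needed for hindbrain axons to cross the midline, and ROBO4 is best known from the endothelium of blood vessels.

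The deposited pileups rose in steps of 0.735, taken as 1 ChIP fragment each, so the height of a peak is given as fragments at its summit, with the exact Poisson 95% interval where one is printed. Such intervals cover counting error only. Fold enrichment is the authors' value and divides the pileup by the input found locally, after adding 1 to both. The ChIP library held 61259377 fragments after duplicate removal and the input 22521186, a ratio of 2.72. The local input derived from pileup and fold enrichment had a median of 5.00 in the 327 peaks and 5.00 in all peaks, against a floor of 3.99.

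Sequences are shown for 4 starts on which the results below turn. They are the 250 bases upstream of RefSeq starts (GRCh38.p14, the build of the peaks), each 5′ to 3′, in lower case. Capitals mark matches to TAATCC or TAATCT on either strand, the motifs used for OTX2 in the study. The ROBO4 start lies under the peak with the highest fold enrichment near any member's TSS, the inner ROBO1 start and the SLIT2 start are also overlapped by a peak, and the ROBO3 start has the motif but no peak.
ROBO4, chr11:124897866-124898115, minus strand: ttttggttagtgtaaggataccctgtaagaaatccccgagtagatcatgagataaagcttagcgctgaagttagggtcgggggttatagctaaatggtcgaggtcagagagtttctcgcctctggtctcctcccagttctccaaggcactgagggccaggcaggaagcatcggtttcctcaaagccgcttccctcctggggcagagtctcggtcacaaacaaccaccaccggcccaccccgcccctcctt
ROBO1 inner start, chr3:79019460-79019709, minus strand: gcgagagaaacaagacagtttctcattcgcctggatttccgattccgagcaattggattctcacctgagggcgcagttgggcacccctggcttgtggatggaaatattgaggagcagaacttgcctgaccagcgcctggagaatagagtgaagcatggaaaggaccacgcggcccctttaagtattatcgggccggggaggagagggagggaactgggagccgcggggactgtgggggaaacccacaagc
SLIT2, chr4:20251655-20251904, plus strand: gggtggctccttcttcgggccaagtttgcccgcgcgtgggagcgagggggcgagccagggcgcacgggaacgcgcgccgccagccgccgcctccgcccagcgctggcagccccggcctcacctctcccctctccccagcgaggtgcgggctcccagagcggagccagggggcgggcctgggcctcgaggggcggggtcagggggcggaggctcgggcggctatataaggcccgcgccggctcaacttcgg
ROBO3, chr11:124865182-124865431, plus strand: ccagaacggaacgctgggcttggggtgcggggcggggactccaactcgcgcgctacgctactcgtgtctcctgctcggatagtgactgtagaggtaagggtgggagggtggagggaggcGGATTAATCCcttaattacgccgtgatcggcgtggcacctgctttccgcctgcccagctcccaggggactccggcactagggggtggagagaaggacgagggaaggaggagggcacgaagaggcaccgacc
The motifs were searched on both strands in RefSeq windows from 250 bp upstream to 50 bp downstream of the start. Of 35116 such windows on the chromosomes, 12.8% held a motif (TAATCC in 6.36% and TAATCT in 7.17%), and 30.0% overlapped a peak. Among the windows overlapping a peak, 13.3% held a motif. The members had 11 windows, of which 5 overlapped a peak, and none of these 5 held either motif. A motif was found in 2 member windows, neither overlapping a peak. In the ROBO3 window the capitals mark 2 overlapping matches, TAATCC and its reverse complement GGATTA, starting 127 and 131 bp upstream of the TSS. The other is a ROBO2 window at chr3:76310630-76310929, with AGATTA 193 bp upstream of its start. No sequence under the remaining peaks was read here, so these counts concern only the windows.

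OTX2 peaks were denser over most SLIT and ROBO genes than over the typical protein-coding gene. The 3 SLIT records held 144 peaks in 1.496 Mb (96.3 per Mb) and the 4 ROBO records 183 peaks in 3.247 Mb (56.4 per Mb). Across all 7 the density was 68.9 peaks per Mb (exact Poisson 95% interval 61.7 to 76.8). All chromosomes together, measured from their first to their last peak, held 45.6 per Mb. Those that carry the members held from 47.6 (chromosome 10) to 52.9 (chromosome 11). The median gene among the 19881 had 51.2 peaks per Mb of extended record, with quartiles of 27.3 and 78.9. For the 3648 genes of at least 100 kb the median was 54.6. The members had a median of 97.4, and 6 of 7 lay above the median gene. Both values count ROBO3 and ROBO4 separately, although their extended records held the same peaks.

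In ascending order, ROBO2 had 42.9 peaks per Mb (95% interval 33.9 to 53.4), ROBO1 71.6 (57.7 to 87.9), SLIT1 86.8 (56.2 to 128), SLIT3 97.4 (76.2 to 123), SLIT2 100.3 (73.7 to 133), ROBO3 112 (59.7 to 192) and ROBO4 113 (60.3 to 194). These intervals treat peaks as independent counts, although full 100 kb stretches of ROBO1 held from 1 to 16 peaks. They may therefore be too narrow, and differences between the genes were not tested. ROBO3 and ROBO4 lie close together on opposite strands, and their extended records held the same 13 peaks, so they do not count as separate observations. ROBO2 was the only member below the median gene, exceeding 41.1% of genes, and SLIT2 exceeded 87.1%.

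**Figure D1:**
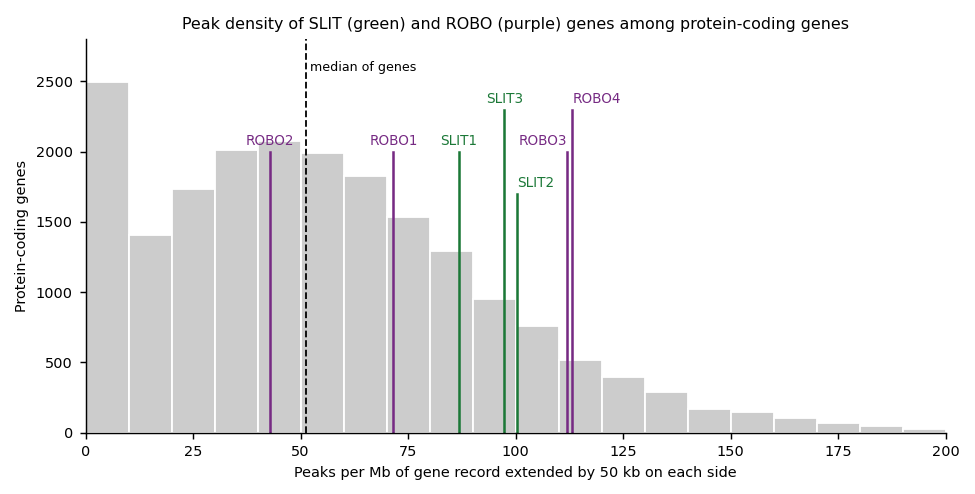
Histogram of OTX2 peaks per Mb of extended gene record over protein-coding genes (bars, 10 peaks per Mb wide, 59 genes above 200 not drawn), with the 3 SLIT genes as green lines and the 4 ROBO genes as purple lines; line heights only separate the labels. The dashed line is the median gene at 51.2 peaks per Mb, and of the members only ROBO2, at 42.9, stands to its left.

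The peaks themselves were of ordinary height. Their median was 60 fragments (quartiles 38.5 and 103) against 53 over all peaks (quartiles 34 and 95), and their median fold enrichment was 6.82 against 6.10. The SLIT peaks had a median of 57 fragments and the ROBO peaks 62. Heights of at least 165 fragments, the 90th percentile of the whole list, were reached by 36 of 327 peaks (11.0%), compared with 10.1% of all peaks. Summits were placed by the canonical transcript of each gene, with the peaks shared by ROBO3 and ROBO4 placed by ROBO3 alone. On this count 241 lay in introns, 3 in exons and 83 outside. The 83 include 2 in introns of ROBO4 and 42 in the ROBO2 record upstream of its canonical transcript. Shares of all peaks or of bases in introns were not computed, so these counts show no preference for introns. Neighbouring summits were a median of 7.01 kb apart against 9.23 kb over all peaks, and 16.5% of spacings were under 2 kb against 15.5%.

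**Figure D2:**
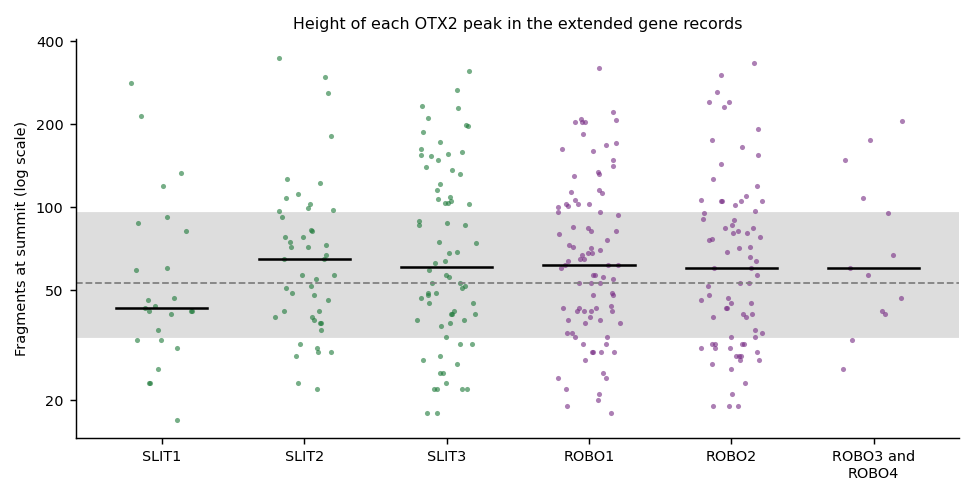
Height of every OTX2 peak in each extended gene record, in fragments at the summit on a log scale. Points are peaks, black bars are medians per gene, the dashed line is the median of all peaks (53 fragments) and the grey band their quartiles (34 to 95). Medians of all genes lie inside the band, with SLIT1 lowest at 43 fragments.

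At the transcription starts of the gene records, the members had peaks about as often as other genes. In a window starting 5 kb upstream and ending 2 kb downstream of the 5′ end of the gene record, called the TSS window here, 4 of 7 members had a peak, against 57.2% of all protein-coding genes. These were SLIT1, SLIT2, SLIT3 and ROBO4. Within 1 kb of any annotated transcript start, 6 of 7 had a peak, all except SLIT1, against 56.8% of all genes. SLIT3 counts here only through the start of SLIT3-204, which lies 942 bp from the edge of a peak. A gene with more starts also has more chances to be counted. Starts within 500 bp of each other were joined, and those over 1 kb from the record TSS were counted as alternative starts. Of these, 10 of 33 in the members had a peak within 1 kb (background 16.0% of 47269), and so did 7 of the 15 used by coding transcripts (background 23.2%). The ROBO3 starts 10689 and 11956 bp downstream of the record TSS share a peak.

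**Figure D3:**
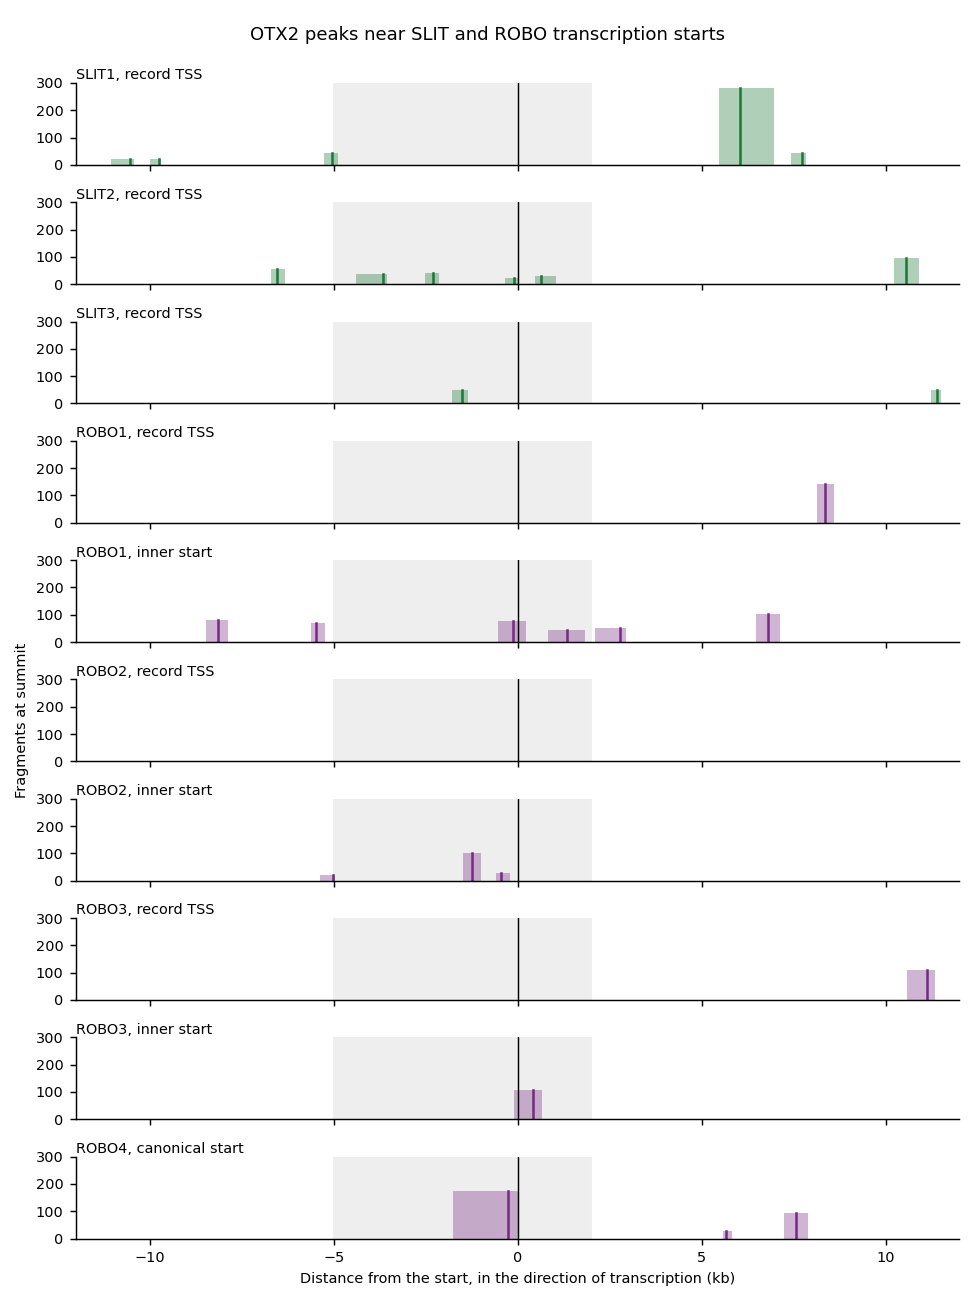
OTX2 peaks within 12 kb of selected starts, with distance in kb along the direction of transcription. Boxes span each peak, their height and the vertical line at the summit give the fragments, the black line is the start and the grey zone is the TSS window (5 kb upstream, 2 kb downstream). The record TSS of ROBO1, ROBO2 and ROBO3 has no peak in the grey zone, while inner starts of these genes do.

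SLIT1 (ENSG00000187122, chr10:96998038-97185959, minus strand) encodes a ligand expressed mainly in the nervous system. Its extended record held 25 peaks, 20 of them in the record, with heights from 17 to 283 fragments and a median of 43, the lowest of the family. The window at the TSS was touched by 1 peak of 42 fragments (30.3 to 56.8) and 6.39-fold enrichment, which overlapped it by 105 bp and had its summit 5044 bp upstream, outside the window. The tallest SLIT1 peak lay farther from the window, on the other side. It spanned chr10:97178990-97180480 in intron 1, 6051 bp downstream of the TSS, with 283 fragments (251 to 318) and 36.8-fold enrichment, higher in fragments than 98.2% of all peaks and in fold enrichment than 99.5%. Intron 4, 91.7 kb long, held 12 peaks, among them the next tallest with 215 fragments and 14.5-fold enrichment. At that peak the local input was 10.0, above the median of 5.00, whereas at the intron 1 peak it was 4.68.

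SLIT2 (ENSG00000145147, chr4:20251905-20620561, plus strand), the ligand most studied as an axon repellent, held 47 peaks, 41 of them in the record. At its TSS there were 4 peaks, more than at any other member, but all were low. Their summits lay 3668, 2312 and 111 bp upstream and 638 bp downstream of the TSS, with 38, 40, 22 and 29 fragments and fold enrichments of 5.79, 6.10, 3.44 and 4.48. The peak of 22 fragments (13.8 to 33.3) overlaps the promoter printed above, covering 269 bp of the 300 bp window, and the peak of 29 fragments (19.4 to 41.6) lies in exon 1 and within 1 kb of another cluster of coding starts 1355 bp downstream. The 3 tallest SLIT2 peaks were intronic. Intron 4, 199 kb long, held 24 SLIT2 peaks in all, including the tallest peak of the whole family at chr4:20383928-20385248, 132.8 kb downstream of the TSS. It had 349 fragments (313 to 388) and 32.2-fold enrichment, more fragments than 99.6% of all peaks. The same intron held the next 2, with 296 fragments (29.9-fold) and 260 fragments (28.0-fold). Near the 3′ end, the start of transcript SLIT2-211 had a peak of 98 fragments and 7.31-fold enrichment with its summit 573 bp upstream.

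SLIT3 (ENSG00000184347, chr5:168661740-169301139, minus strand), the third ligand, held 72 peaks, 67 of them in the record. Its TSS window contained 1 peak with its summit 1525 bp upstream, 49 fragments (36.3 to 64.8) and 5.29-fold enrichment. Intron 4, 310 kb long, held 39 peaks at 126 per Mb, and intron 3, 51.2 kb long, held 9. The densest 20 kb run in any member was in intron 4 of SLIT3, where 9 summits lay between 271 and 288 kb from the TSS, with heights from 22 to 172 fragments. Of all peaks, 0.502% open a 20 kb run with as many summits. This is a share per peak, whereas the run in SLIT3 was picked as the densest in any member. The tallest SLIT3 peak, at chr5:168790742-168791399 in intron 10, had 311 fragments (277 to 348) and 23.0-fold enrichment at a local input of 9.0. Its summit lay 1282 bp downstream of the start of SLIT3-204, a transcript not annotated as protein-coding. The peak with the highest fold enrichment in SLIT3 was in intron 4, with 267 fragments and 34.7-fold enrichment at a local input of 4.68. In all 3 ligand genes the tallest peaks lay in introns and not in the TSS window. That window is far shorter than these gene records, and a preference for introns was not tested.

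ROBO1 (ENSG00000169855, chr3:78597239-79767998, minus strand), a principal SLIT receptor, held 91 peaks, 82 of them in the record. No peak lay in the window at its outer TSS, the nearest being 8.12 kb away with 141 fragments and 10.5-fold enrichment. ROBO1 has an inner start 748.5 kb downstream, used by 4 coding transcripts (ROBO1-201, ROBO1-204, ROBO1-209 and ROBO1-212). Here a peak at chr3:79019242-79019997 covered the whole promoter window, with its summit 120 bp upstream, 76 fragments (59.9 to 95.1) and 9.48-fold enrichment. A further peak of 43 fragments and 5.63-fold enrichment followed within 1 kb of these starts. The peak density differed on the sides of this start. Before it, 748.5 kb held 32 peaks (42.8 per Mb), and from it to the 3′ end 422 kb held 50 (118 per Mb). The rise began ahead of the inner start. The 100 kb stretches between 50 and 650 kb from the outer TSS held 1 to 7 peaks each. The stretch from 650 kb held 10 and that from 750 kb 12. The heights did not follow the density, with medians of 63.5 fragments before and 58.5 after. The tallest ROBO1 peak, at chr3:79002412-79003364, had 320 fragments (286 to 357) and 35.7-fold enrichment and lay 16.4 kb downstream of the inner start. In the outer section 122 kb passed without a summit, the longest gap in any member. Further starts with a peak were that of ROBO1-205, with 171 fragments (146 to 199), 15.8-fold enrichment and its summit 92 bp downstream, and that of ROBO1-210 and ROBO1-211, with 38 fragments and 5.80-fold enrichment.

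ROBO2 (ENSG00000185008, chr3:75906695-77649964, plus strand), the other principal SLIT receptor and the longest gene of the family at 1743 kb, held 79 peaks, 76 of them in the record. It was the member with the sparsest peaks, below the 52.2 peaks per Mb of chromosome 3, while ROBO1 on the same chromosome was above it. The outer TSS had no peak within 37.3 kb. The inner start 1133 kb downstream, which the canonical transcript uses, had 2 peaks upstream of it. One had 102 fragments (83.2 to 124) and 15.2-fold enrichment with its summit 1242 bp upstream, and the other 27 fragments and 4.18-fold enrichment with its summit 451 bp upstream. Neither reached the RefSeq promoter window of this start. The other 7 ROBO2 starts had no peak within 1 kb. From the inner start to the 3′ end the density was 55.7 per Mb, compared with 37.1 before it, a smaller difference than in ROBO1. Intron 2 of the canonical transcript held 26 of the peaks. The tallest ROBO2 peak lay in that intron, with 334 fragments (299 to 372) and 22.4-fold enrichment at a local input of 10.0. The peak with the highest fold enrichment of the whole family, 42.8 with 302 fragments at a local input of 4.21, lay at chr3:76431275-76432182, 525 kb downstream of the outer TSS and upstream of the inner start. Another peak reached 38.7-fold enrichment with 261 fragments, 773 kb from the outer TSS.

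**Figure D4:**
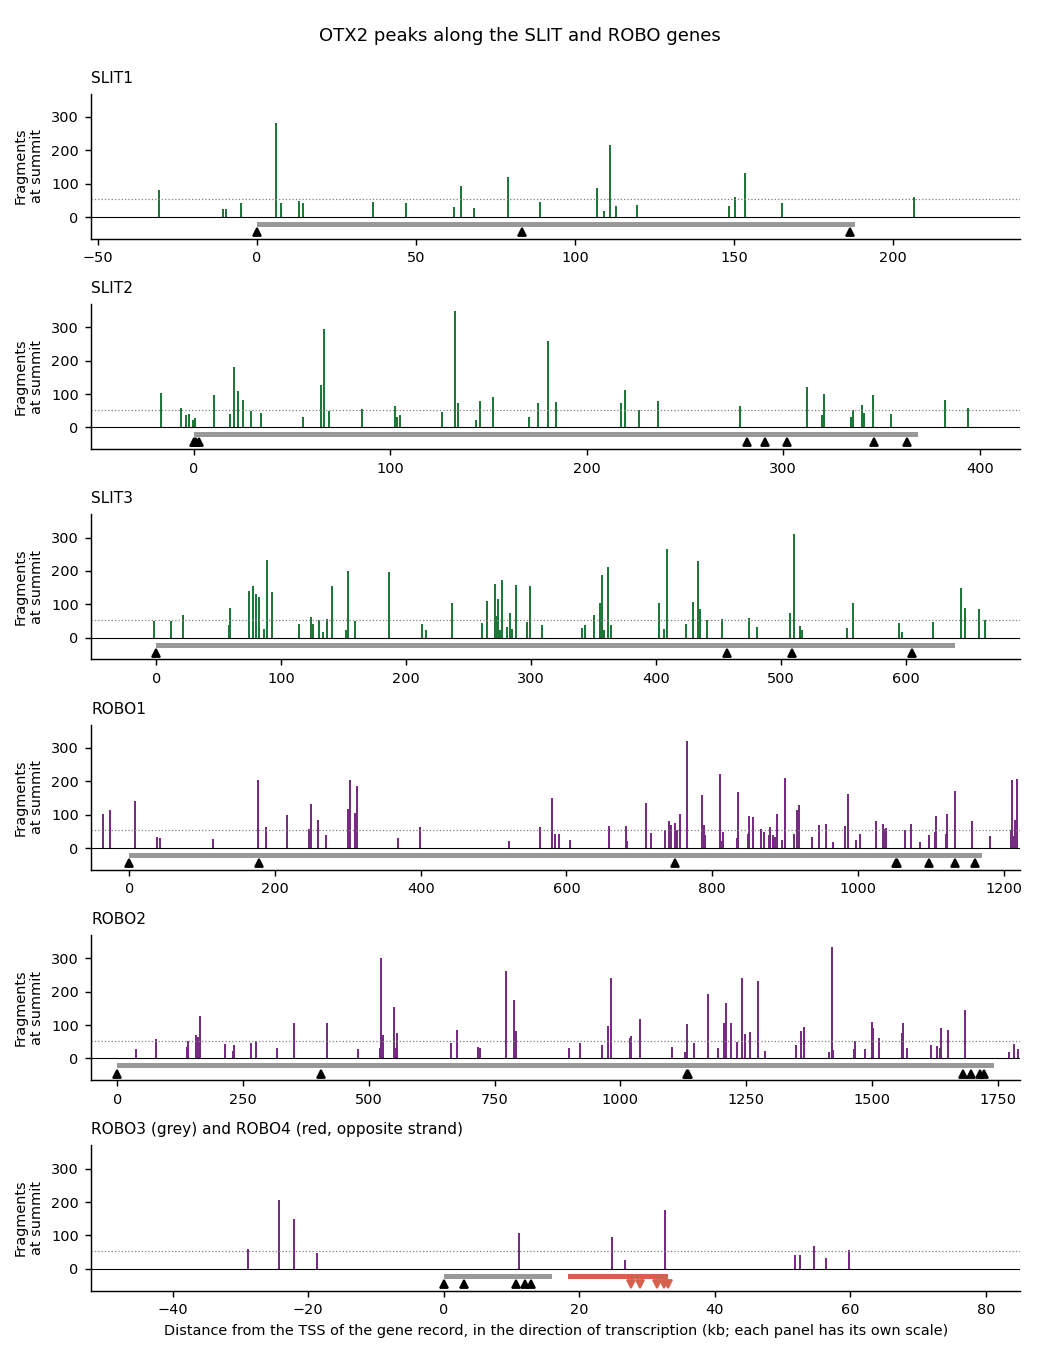
OTX2 peaks along each gene, as fragments at the summit against distance from the record TSS in kb. Lines are peaks, grey bars the gene records, black triangles the transcript starts (red bar and triangles for ROBO4, which runs the opposite way) and the dotted line the median of all peaks (53 fragments). Peaks of ROBO1 are denser from about 650 kb on, which is ahead of the inner start near 749 kb. No member has its tallest peak at its record TSS once the 50 kb flanks are counted. Within the ROBO4 record itself, though, the tallest is the one at the TSS.

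ROBO3 (ENSG00000154134, chr11:124865432-124881471, plus strand) and ROBO4 (ENSG00000154133, chr11:124883691-124898500, minus strand) are short genes of 16.0 and 14.8 kb and share 13 peaks. The ROBO3 record contained 1 of them and the ROBO4 record 3. The record TSS of ROBO3, where the overlapping motif pair was found, had no peak within 10.6 kb. The single ROBO3 peak, at chr11:124876014-124876771 with its summit in intron 17, had 108 fragments (88.6 to 130) and 16.1-fold enrichment. It overlapped an inner start region 10.7 kb downstream, where 16 transcripts not annotated as protein-coding begin. Its edge also lay 617 bp from the start of ROBO3-221, a coding transcript, with its summit 850 bp upstream of that start.

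ROBO4 had the tallest and most enriched peak within 1 kb of the start of a coding transcript. It spanned chr11:124897852-124899632, 1781 bp in all, with 175 fragments (150 to 203), 26.0-fold enrichment and a local input of 3.99, the floor. Its summit lay 353 bp downstream of the record TSS and 279 bp upstream of the canonical start. Thus the peak reaches from the canonical start across the outer starts, whose transcripts are not annotated as protein-coding. In fold enrichment it exceeded 97.2% of all peaks, and in fragments 91.1%. The peak at the start of ROBO1-205 was nearly as tall, with 171 fragments (146 to 199), but less enriched at 15.8-fold. A further ROBO4 peak of 95 fragments and 14.2-fold enrichment lay in intron 12, near the 3′ end. Another of 26 fragments and 4.02-fold enrichment lay near the start of ROBO4-210, a transcript not annotated as protein-coding. The tallest peak of the shared window was upstream of ROBO3, 24.4 kb from its TSS, with 205 fragments and 15.2-fold enrichment at a local input of 9.0.

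The extended records also reach other genes, so peaks in the flanks cannot be assigned to the SLIT and ROBO genes alone. The window of SLIT1 overlaps LCOR, ARHGAP19 and the read-through gene ARHGAP19-SLIT1, though the TSS of none of these lies in it. The shared window of ROBO3 and ROBO4 contains the TSS of HEPN1, which had 3 peaks in its TSS window with up to 67 fragments and 10.1-fold enrichment. It also overlaps HEPACAM, whose TSS lies only in the extended record of ROBO4 and had no peak near it. The windows of SLIT2, SLIT3, ROBO1 and ROBO2 overlap no other protein-coding gene.

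MicroRNA genes lie inside the SLIT2 and SLIT3 records. MIR218-1 (chr4:20528275-20528384, intron 15 of SLIT2) and MIR218-2 (chr5:168768146-168768255, intron 14 of SLIT3) give the same mature product, shown from RefSeq with the seed, bases 2 to 8, in capitals because it ties the pair of host genes together.
hsa-miR-218-5p: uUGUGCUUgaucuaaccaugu
The nearest peak to MIR218-1 began 1287 bp downstream of the hairpin and had 65 fragments (50.2 to 82.8) and 6.97-fold enrichment. For MIR218-2 the nearest was 15.8 kb upstream, a low peak of 22 fragments (13.8 to 33.3) and 3.44-fold enrichment. Both hairpins had 6 peaks within 50 kb, so the copies differed in the distance to a peak but not in the number around them. MIR585, in intron 1 of SLIT3, had 10 peaks within 50 kb, the nearest 16.2 kb upstream with 69 fragments and 10.3-fold enrichment.

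Beyond the ligands and receptors, 30 genes of the pathway were listed by role, comprising coreceptors and other ligands, GTPase-activating proteins, other signalling proteins, and actin and microtubule regulators. Of these, 29 have a GRCh38 position in the annotation, and 23 (79.3%) had a peak in the TSS window, beside the 57.2% of all genes. With only peaks of at least 5-fold enrichment, 14 of the 29 had one, beside 38.5% of all genes, a narrower gap. Their extended records had a median of 67.3 peaks per Mb, and 20 of 29 lay above the median gene. The highest fold enrichment near a TSS was that of SRGAP1, a GTPase-activating protein that binds the ROBO cytoplasmic tail, with 22.2-fold and 240 fragments 1928 bp upstream. FLRT3, a coreceptor of ROBO1, followed with 15.6-fold and 126 fragments. The microtubule plus-end proteins CLASP1 and CLASP2 had 14.1-fold with 94 fragments and 9.49-fold with 75 fragments. ENAH, an actin regulator of the Ena/VASP family, had 12.1-fold with 263 fragments, and the small GTPase RHOA 11.4-fold with 76 fragments. ROBO4 was above all of these, whereas SLIT1, SLIT2 and SLIT3 lay among the middle of the list. No peak was found near the TSS of EVL, NCK2, PFN1, GPC1, NELL2 or PLXNA1, of which NELL2 encodes a ligand of ROBO3.

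**Figure D5:**
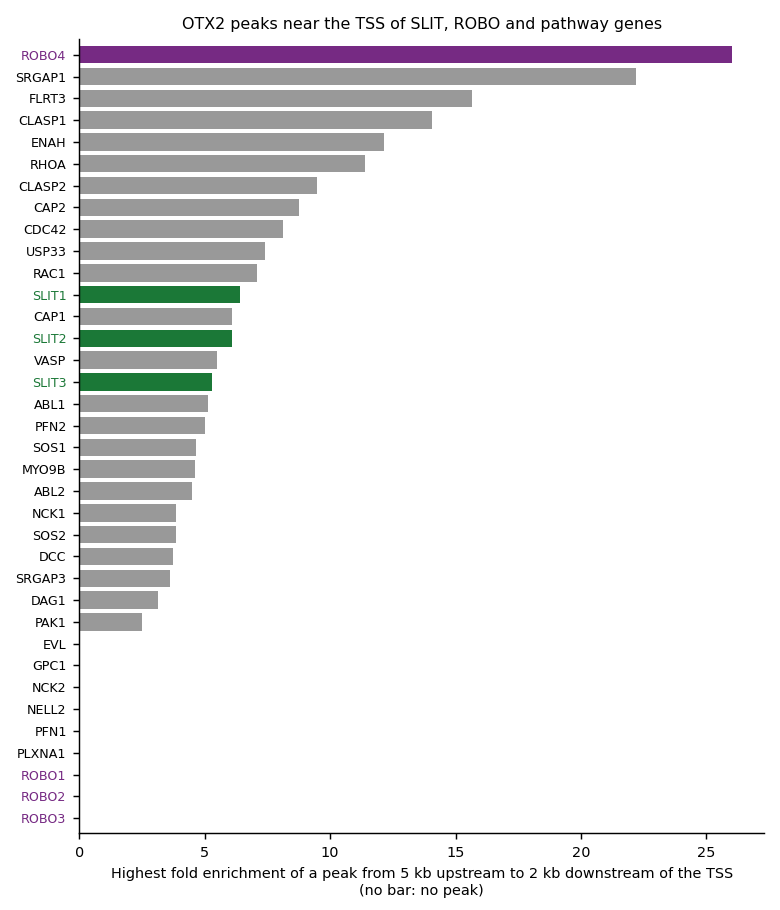
Highest fold enrichment among OTX2 peaks in the TSS window for the SLIT genes (green), the ROBO genes (purple) and 29 pathway genes (grey); genes without a bar have no peak there. ROBO4 leads at 26.0, and 3 ROBO genes and 6 pathway genes have no bar.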

How the data were processed

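OTX2 ChIP-Seq was performed by the authors on D283 tumorspheres, with 1 ChIP library and 1 input library. Per the labels, reads were mapped with Bowtie2 2.2.4 to GRCh38 and peaks were called with MACS2 2.1.0.20140616. The deposited peak list was called on the 1 ChIP library against the input at a q-value cutoff of 0.05, keeping 1 fragment per position. The deposited pileup is a signal (scaled coverage by fragments at each summit), the deposited fold enrichment is a ratio to local input, and the deposited −log10 values belong to each peak's p-value and q-value. Distinct pileups lay in steps of 0.735, taken here as 1 fragment, and all (100%) were within 0.05 of a whole number of steps. The step is 2 times the input to ChIP depth ratio of 0.368, and the reason for this factor is not given in the sources used here. The study states that blacklisted regions were masked, which could not be checked on the list. Of 84980793 ChIP and 32292980 input fragments, 61259377 and 22521186 remained after duplicate removal, so the shallower input limits the precision of fold enrichments.

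Gene records and starts came from GENCODE release 44, using the GRCh38 position recorded for each exon, with no conversion of coordinates. Promoters and microRNAs came from RefSeq (GRCh38.p14), matched by symbol for all 7 members and 3 microRNA genes. A peak was counted at 1 bp of overlap. The TSS window began 5 kb upstream and ended 2 kb downstream, and starts within 500 bp were joined. Poisson intervals were exact, at 95%. The software was scipy 1.17.1, numpy 2.4.6 and pandas 2.3.3 under Python 3.11.15, with plots by matplotlib 3.10.9, and the window counts were tested on simulated peaks. The members and the pathway list were chosen with earlier results of these data known. All 7 members, other protein-coding genes in their windows, 3 microRNA genes and the 6 listed pathway genes with the highest fold enrichment at the TSS are named, with each member's peaks at starts and its tallest peaks. Pathway genes without a peak were named after their values were seen. SRGAP2 of the pathway list was not analysed here, because the annotation used records no GRCh38 position for it. Sequence under the peaks was not analysed here. Alternatives were stricter peaks, other windows and extensions, other starts and RefSeq records.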

Additional observations from a re-analysis of the deposited data

How the results depend on the processing

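No paired analysis was possible because each group is a single library, and no replicate could be left out. Over the 5 summary values and their alternatives, these moved. The density of 68.9 peaks per Mb became 61.6 when peaks below a −log10 q of 5 were dropped and 48.9 when those below 5-fold enrichment were. At these limits the whole list fell from 137412 peaks to 121074 and 86427. The densities are thus not comparable with those given above for all peaks. The median height of 60 fragments became 82 at the fold limit, where the whole list rose to 78 and fewer peaks were counted by construction. At that limit 14 of the 29 pathway genes had a peak near the TSS in place of 23, beside 38.5% of all genes. Members with a peak near the record TSS numbered 4, but 2 in a window of 1 kb on either side (SLIT2 and ROBO4; 46.9% of all genes) and 7 when any transcript start was used (66.6%). With summits in place of overlaps there were 3, without SLIT1 (56.3% of all genes), and with canonical starts, chosen after seeing the data, 5, with ROBO2 added (58.5%). Members with a peak at any start ranged from 5 to 7. The other alternatives left the density between 65.7 and 70.0 peaks per Mb, RefSeq records (also chosen after seeing the data) included, and the median height between 59 and 67 fragments. Depth is that of a single ChIP library, and whether low peaks, such as that of 22 fragments at the SLIT2 TSS, recur in another library was not tested.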
